A study of Mus musculus with 30 samples.

Results

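The mitosis genes are 49 genes whose products drive, carry out or check the division of a cell, chosen by gene symbol from a written list and found in 49 of 49 cases among the 20321 genes quantified. They cover 11 roles, from cyclins and mitotic kinases to spindle motors, kinetochore proteins, condensin and the proteins that split the cell. Their RNA was measured in the third hindlimb digit of 30 adult male C57Bl/6 mice after the tip of its distal phalanx (P3) had been cut off and the skin wound not sutured, which is a standard model of mammalian regeneration. Digits were collected at 9 times, which were 0 h and then 3, 6, 12 and 24 h and 3, 7, 14 and 21 d after the cut, with 6 mice at 7 d and 3 mice at each other time, and 1 library was made from each digit. All mice carry the same strain background and received the same amputation, and no digit left intact is part of the comparison, so that 0 h is the reference throughout. The RNA comes from bulk tissue of the digit, collected as P3, in which fewer dividing cells and less mitotic RNA per cell cannot be told apart.

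In a dividing cell most of these genes are transcribed late in the cycle, their products peak as chromosomes condense, and many of the proteins are destroyed when the cell leaves mitosis. Cyclin B with the kinase Cdk1 opens mitosis, Aurora and Polo-like kinases build the spindle, kinesin motors move chromosomes and microtubules, and the checkpoint kinases hold the anaphase-promoting complex back until every kinetochore is attached. In the digit tip, cells of the basal epidermis, the nail matrix and the hair follicles divide without injury, and the mass of proliferating cells named the blastema forms after the wound has closed.

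Each mouse had between 3167625 and 16277816 expected counts in all. The dates in the sample titles fall into an earlier period, July to August, with 16 mice, and a later one, November to January, with 14 mice. All 3 h and 12 h mice carry earlier dates, all 21 d mice later ones, and at 0 h 1 mouse carries an earlier and 2 carry a later date, so time and date are only partly separable. The 24 h mouse 3 is the only one of its time with a later date, and the 7 d mouse 3, labelled left foot as are 2 other 7 d mice, stood apart in several members, so results that rest on either are given without it as well. The titles of 0 h mouse 3 and 12 h mouse 2 share an animal code, date and foot, while the methods of the study count 30 separate mice.

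The summed level of the 49 genes was low at 3 h, higher at 6 h and 12 h, low again at 24 h and higher again from 3 d. Levels are given in TPM, relative transcript abundances scaled for gene length and for the total of each mouse. The sum was 1179, 1249 and 1275 TPM in the 3 mice at 0 h and 499, 524 and 583 TPM at 3 h, so that every 3 h mouse held less than any 0 h mouse, and the mean at 3 h was 43.4% of that at 0 h. At 6 h it was 971, 1251 and 941 TPM and at 12 h 1113, 1207 and 1055 TPM, or 85.4% and 91.2% of 0 h in the mean. At 24 h the mice held 857, 748 and 440.2 TPM, again all below 0 h. The 24 h mean was 55.3% of 0 h and was 65.1% without mouse 3, the lowest of all 30 mice.

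From 3 d onward the sums overlapped those of 0 h at 3 d, 7 d and 21 d. They were 1489, 959 and 1053 TPM at 3 d, 1024 to 1675 with a median of 1423 TPM at 7 d, 1342, 1539 and 1499 TPM at 14 d and 1084, 1409 and 1254 TPM at 21 d. Every 14 d mouse lay above every 0 h mouse, and the 14 d mean was 118% of 0 h. On another scale, CPM, which divides counts by an adjusted library total (TMM normalization) and ignores gene length, that mean was 109% of 0 h. Without the 3 genes of highest level, Birc5, Top2a and Mki67, the 3 h and 24 h means were 46.1% and 57.5% of 0 h.

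**Figure D1:**
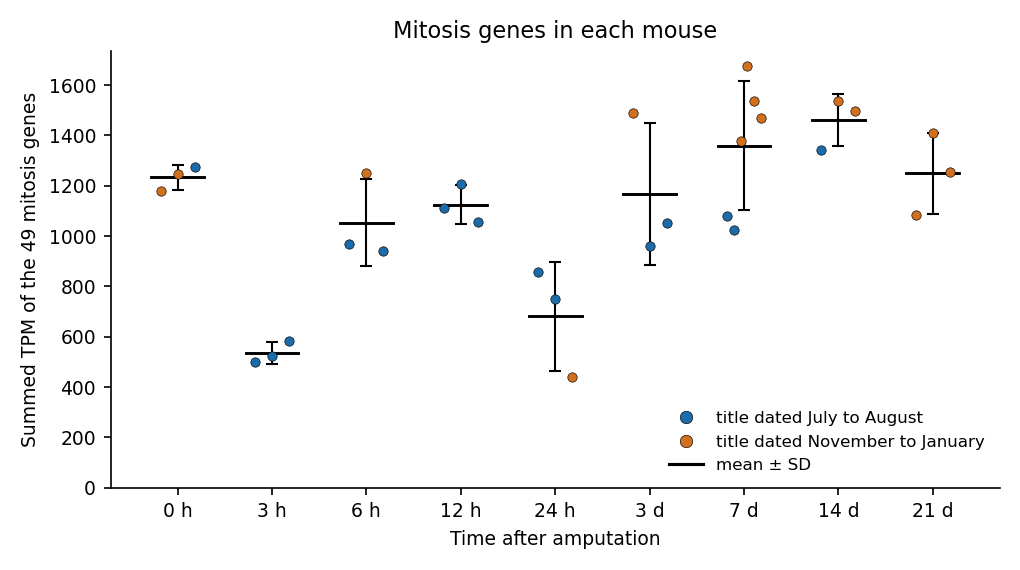
Summed TPM of the 49 mitosis genes (vertical axis, from 0) in each mouse at the 9 times after amputation (horizontal axis, not to scale in time), with points coloured by the period of the title date and bars for the mean and SD. The 3 h mice sit between 499 and 583 TPM and the 24 h mice between 440.2 and 857 TPM, all below the 0 h mice at 1179 to 1275 TPM.

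Sums below 0 h at 24 h were seen in both periods of the title dates. The 3 h fall could be seen only among earlier dates, because all 3 h mice carry them. Among mice of earlier dates the 3 h mean was 42.0% of the single 0 h mouse and the 24 h mean of 2 mice was 63.0% of it. That 0 h mouse is mouse 3, whose title shares its animal code, date and foot with 12 h mouse 2. Every percentage of 0 h given for earlier dates rests on this mouse. Among mice of later dates the single 24 h mouse held 36.3% of the mean of the 2 mice at 0 h. Other times also differed between the periods: at 7 d the mean was 82.5% of 0 h in the 2 mice of earlier dates and 125% in the 4 mice of later dates. At 3 d the 2 mice of earlier dates had 78.9% and the single later one 123% of the 0 h level of their own period. In total counts, the 3 h mice (3167625 to 4999521) lay below the 0 h mice (6094615 to 12773273). At 3 d the totals of the mice were 10097367, 3177205 and 3720886, with sums of 1489, 959 and 1053 TPM. The part of depth in the values at 3 h or any other time was not tested.

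Promoters of mitosis genes are known for a pair of short sequence elements, and the stretches below show them in members that were lower at 3 h and in members that did not pass. The element TTTGAA, the cell cycle genes homology region, is bound by complexes that repress these genes in resting cells and activate them late in the cycle, and CCAAT is the site of the factor NF-Y. In windows of 300 bases, from 250 bases before the RefSeq start of a gene to 50 bases after it (build GRCm38.p6, both strands searched), TTTGAA was found in 32 of 42 members with a window, or 76.2%, against 18.1% of all 27025 windows. CCAAT was found in 31 of 42, or 73.8%, against 37.9% of all windows, and both elements in 27 of 42, or 64.3%, against 7.12%. In the windows of a list of DNA replication genes, TTTGAA was present in 3 of 22 and CCAAT in 17 of 22. A site for E2F factors, TTCCCGCC, was in 0 of 42 members, 5 of 22 DNA replication genes and 2.24% of all windows. No window was given for Ccna2, Aurkb, Kif20a, Tpx2, Spc24, Dlgap5 and Pbk. Printed here are 150 bases, 120 before and 30 after the start, 5′ to 3′ on the strand of the gene, for Cdk1, Cdc20 and Kif11 as core genes of mitotic entry, exit and the spindle, for 4 of the members lower at 3 h, and for Hmmr and Anln, which did not pass the test over time. Capitals mark TTTGAA and CCAAT, which read TTCAAA and ATTGG where they lie on the other strand.
Cdk1 (chr10:69352883-69353032, minus strand): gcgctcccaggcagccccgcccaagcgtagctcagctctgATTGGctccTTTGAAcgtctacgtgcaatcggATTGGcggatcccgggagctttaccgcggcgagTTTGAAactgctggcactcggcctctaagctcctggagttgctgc
Cdc20 (chr4:118437314-118437463, minus strand): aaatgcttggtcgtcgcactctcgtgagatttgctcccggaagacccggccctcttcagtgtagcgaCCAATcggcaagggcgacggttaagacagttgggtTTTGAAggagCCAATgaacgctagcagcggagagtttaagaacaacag
Kif11 (chr19:37376262-37376411, plus strand): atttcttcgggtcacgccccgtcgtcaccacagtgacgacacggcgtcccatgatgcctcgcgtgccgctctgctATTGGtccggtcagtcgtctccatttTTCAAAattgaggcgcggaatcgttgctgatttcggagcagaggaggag
Cenpf (chr1:189688057-189688206, minus strand): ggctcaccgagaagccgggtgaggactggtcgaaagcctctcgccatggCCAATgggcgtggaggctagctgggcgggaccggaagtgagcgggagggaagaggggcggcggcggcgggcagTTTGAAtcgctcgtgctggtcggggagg
Ncapg (chr5:45669805-45669954, plus strand): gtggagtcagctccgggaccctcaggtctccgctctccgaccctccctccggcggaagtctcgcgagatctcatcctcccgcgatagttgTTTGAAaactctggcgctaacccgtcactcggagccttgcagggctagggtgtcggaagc
Racgap1 (chr15:99651627-99651776, minus strand): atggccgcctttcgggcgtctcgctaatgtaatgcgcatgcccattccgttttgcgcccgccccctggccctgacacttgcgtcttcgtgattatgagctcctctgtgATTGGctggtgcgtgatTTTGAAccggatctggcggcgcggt
Nusap1 (chr2:119618178-119618327, plus strand): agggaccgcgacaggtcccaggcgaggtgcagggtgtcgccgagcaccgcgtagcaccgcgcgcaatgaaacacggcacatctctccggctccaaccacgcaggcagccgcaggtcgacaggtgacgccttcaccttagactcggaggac
Hmmr (chr11:40733408-40733557, minus strand): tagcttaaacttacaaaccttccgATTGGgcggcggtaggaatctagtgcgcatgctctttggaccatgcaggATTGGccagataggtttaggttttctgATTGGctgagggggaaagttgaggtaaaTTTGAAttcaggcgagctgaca
Anln (chr9:22389177-22389326, minus strand): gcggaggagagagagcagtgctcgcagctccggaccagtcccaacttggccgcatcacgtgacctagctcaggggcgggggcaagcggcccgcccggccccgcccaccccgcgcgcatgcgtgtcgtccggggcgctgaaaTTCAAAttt

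TTTGAA was present in 14 of 18 members that passed the test over the time course (77.8%) and in 18 of 24 that did not (75%). Among the printed stretches, Nusap1, which was lower in every 3 h mouse, held neither element, while Hmmr, with the highest p over time, held 1 TTTGAA and 3 CCAAT. These are matches of letters and not measured sites.

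Over the time course, 22 of the 49 genes changed, by edgeR's quasi-likelihood F-test over the 9 times with Benjamini-Hochberg adjustment over 13793 genes at an adjusted p under 0.05. Of all genes tested 9.01% passed, and 38 members had an unadjusted p under 0.05. All 49 members had enough counts to be tested. The lowest adjusted p was that of Ccna2 (0.000119), the cyclin that partners Cdk kinases from S phase to early mitosis, followed by the kinesin Kif20a (0.000405), the spindle kinase Aurka (0.00113) and Racgap1 (0.00172), a regulator of the contractile ring. The highest were those of Hmmr (0.934), a microtubule-binding protein of the spindle, Anln (0.745), an actin scaffold of the cleavage furrow, and Pttg1 (0.673), the securin that holds separase inactive. In total, 38 members had their lowest mean TPM at 3 h and 11 at 24 h, while 25 peaked in the mean at 14 d, 8 at 12 h, 8 at 7 d, 5 at 0 h, 2 at 21 d and 1 at 3 d. The ratio of the highest to the lowest mean TPM ran from 1.6 in Espl1 to 7.38 in Aurka, with a median of 3.01. The count of members passing was 24 without 24 h mouse 3, where 1284 of all 14084 genes passed. It was 25 without 7 d mouse 3, where 1418 of all 13766 genes passed, and 34 by DESeq2's test.

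By role, the genes that changed were spread over all 11 groups. They were Mki67, Top2a and Pbk among 4 proliferation markers, Cdk1 and Ccna2 among 4 genes of cyclins and Cdk1, Bub1b among 3 checkpoint kinases, and Aurka and Aurkb among 4 mitotic kinases. Of 9 spindle motors Kif20a, Kif23, Kif15 and Kif22 passed, of 5 spindle assembly proteins Nusap1 and Prc1, of 7 centromere and kinetochore genes Cenpe, Cenpf and Ndc80, and of 3 condensin subunits Ncapg and Ncaph. Cdca3 passed among 5 genes of mitotic exit and sister separation, Birc5 of the 2 partners of the chromosomal passenger complex, and Racgap1 of 3 cytokinesis genes.

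**Figure D2:**
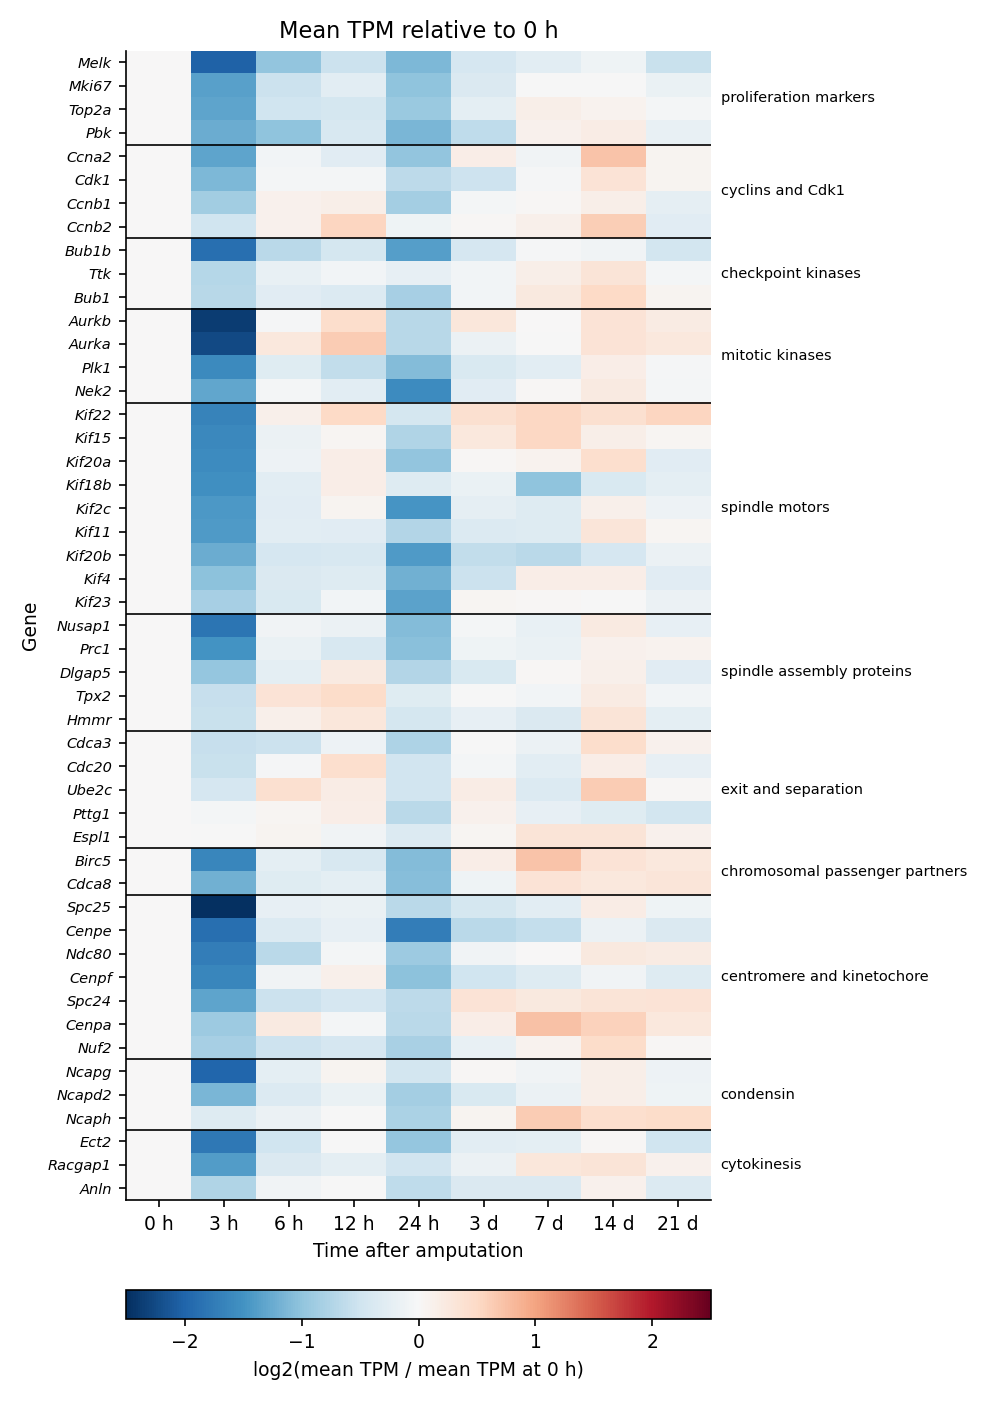
Mean TPM of each of the 49 mitosis genes at each time, as log2 of the ratio to its mean at 0 h (blue lower, red higher), with genes in rows grouped by role and times in columns. The 3 h and 24 h columns are blue in nearly all rows, where the median member stood at 40.2% and 56.9% of its 0 h mean, and the 14 d column is mostly pale red, with a median of 115%.

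At 3 h against 0 h, 9 mitosis genes fell and 0 rose, where 0.116% of all genes tested fell and 0.138% rose. They were Ncapg, Aurka, Kif20a, Nusap1, Bub1b, Cenpf, Ccna2, Racgap1 and Cenpe, and they made up 9 of the 16 genes called lower in the whole table. In all, 35 members had an unadjusted p under 0.05, each with a lower level. Of the 49, 47 had a fold change below 0, as did 51.3% of all genes tested. The median log2 fold change was -1.19 over the members and -0.01 over all genes. In 43 of 49 members every 3 h mouse lay below every 0 h mouse in TPM, as did 15.9% of all genes tested. The 6 exceptions were Ncaph, Nuf2, Hmmr, Ube2c, Pttg1 and Espl1.

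The number called depended on single mice and on the fit. It was 0 without 0 h mouse 1, 0 h mouse 2 or 3 h mouse 2, in fits that called 0, 0 and 1 of all genes. It was 5 without 3 h mouse 3, with 10 of all genes called. It was 15 without 6 h mouse 2 or 24 h mouse 3, with 58 and 54 of all genes called in either direction. With the date period as a covariate it was 29, in a fit that called 828 of all 13793 genes in either direction, against 35 without the covariate. By DESeq2's test it was 21, with 150 of 17169 genes called. Among mice of earlier dates alone it was 1, and in a fit of the 2 times alone 0, with 36 members at an unadjusted p under 0.05. The median log2 fold change of the members was below 0 in each of these fits.

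Among the proliferation markers, Mki67 encodes the protein that coats mitotic chromosomes and is stained as Ki-67. It stood at 54.8, 65.9 and 63.5 TPM in the 0 h mice, 22.2, 21 and 29.1 at 3 h and 44.4, 31.9 and 15.7 at 24 h. The 3 h and the 24 h mice were all below the 0 h mice and overlapped each other. Its log2 fold change at 3 h was -1.22 (SE 0.28, adjusted p = 0.0501), just outside the threshold. Top2a, the topoisomerase that untangles sister chromatids, held 89.2, 85.9 and 94.6 TPM at 0 h, 25.6, 45.7 and 37.1 at 3 h and 64, 53.6 and 23.6 at 24 h. The 3 h and 24 h mice of Top2a were all below 0 h, with log2 fold changes of -1.19 (SE 0.30, adjusted p = 0.0895) and -0.92 (SE 0.30, adjusted p = 0.244). At 7 d, Top2a ran from 71.9 to 127 with a median of 103 TPM and Mki67 from 37.2 to 84.2 with a median of 59 TPM, both overlapping 0 h.

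The cyclins and Cdk1 differed in size of change. Ccna2 (ENSMUSG00000027715, chr3:36564865-36572150, minus strand, build GRCm38) held 32.3, 27.5 and 28.2 TPM at 0 h, 10.7, 14.4 and 10.1 at 3 h, 28, 29.8 and 26.4 at 6 h and 18.1, 18.3 and 8.0 at 24 h. Every 3 h and 24 h mouse was below every 0 h mouse, and the log2 fold change at 3 h was -1.2 (SE 0.25, adjusted p = 0.0301). The exons of Ccna2 overlap those of Exosc9 on the other strand by 510 bases, and Exosc9 itself had a log2 fold change of -0.34 (adjusted p = 0.682). Cdk1, the kinase of mitotic entry whose promoter is printed above, held 18.3, 17.1 and 23.7 TPM at 0 h and 10.6, 9.34 and 7.18 at 3 h, without overlap, and a log2 fold change of -1.0 (SE 0.28, adjusted p = 0.146). Ccnb1, the main mitotic cyclin, held 20, 25.3 and 28.7 TPM at 0 h and 7.91, 15.4 and 17.5 at 3 h, also without overlap (log2 fold change -0.73, adjusted p = 0.378). Ccnb2, the other B-type cyclin, was the least changed of the 4, with a log2 fold change of -0.38 (SE 0.31, adjusted p = 0.691) at 3 h and -0.09 (SE 0.31, adjusted p = 0.963) at 24 h.

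The mitotic kinases held some of the largest differences. Aurka (ENSMUSG00000027496, chr2:172356190-172370535, minus strand), which matures centrosomes, stood at 15.4, 15.9 and 14.3 TPM at 0 h, 4.63, 2.84 and 2.1 at 3 h, 21.1, 17.3 and 16.2 at 6 h and 20.3, 22.1 and 28.3 at 12 h. Its 3 h mice lay far below the others, and from 6 h every mouse was above the 0 h mice up to 12 h. The log2 fold change at 3 h was -2.11 (SE 0.38, adjusted p = 0.00965), and with single mice left out it ran from -2.45 to -1.95 with adjusted p values of up to 0.0901. Aurkb, the catalytic kinase of the chromosomal passenger complex, held 10.3, 10.5 and 10.4 TPM at 0 h and 1.72, 3.24 and 1.03 at 3 h, a log2 fold change of -2.23 (SE 0.51, adjusted p = 0.0501). Plk1, the Polo-like kinase, held 22, 18.4 and 24.9 TPM at 0 h, 9.52, 6.54 and 5.47 at 3 h and 14.4, 12.9 and 3.32 at 24 h. Neither its 3 h nor its 24 h mice overlapped 0 h, and its log2 fold changes were -1.47 (SE 0.42, adjusted p = 0.14) and -1.1 (SE 0.40, adjusted p = 0.33).

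Of the checkpoint kinases, Bub1b (ENSMUSG00000040084, chr2:118598211-118641591, plus strand), the BubR1 protein that holds back the anaphase-promoting complex, changed and the other 2 did not pass the test. Bub1b stood at 21.4, 23.9 and 19.1 TPM at 0 h, 5.01, 4.28 and 8.18 at 3 h, 12.2, 17 and 11 at 6 h and 14.1, 8.01 and 2.78 at 24 h. The 3 h, 6 h and 24 h mice were all below 0 h. The log2 fold change was -1.78 (SE 0.34, adjusted p = 0.0127) at 3 h and -1.39 (SE 0.33, adjusted p = 0.0468) at 24 h. Bub1, its partner at the kinetochore, had -0.55 at 3 h (adjusted p = 0.74), and Ttk, the kinase that starts the checkpoint, had -0.59 (adjusted p = 0.563), both on the log2 scale. The 3 h call of Bub1b was lost in 3 and its 24 h call in 22 of the 30 fits that leave out 1 mouse.

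All 9 spindle motors were lower in the mean at 3 h and at 24 h. Kif20a, a kinesin of the central spindle, held 15.4, 15.2 and 17.3 TPM at 0 h, 4.8, 3.65 and 7.67 at 3 h, 18.1, 17.5 and 17.9 at 12 h and 9.85, 10.3 and 3.99 at 24 h. It fell at 3 h, with a log2 fold change of -1.46 (SE 0.27, adjusted p = 0.0105), and its 12 h mice were all above 0 h in TPM. Kif11, the motor that pushes spindle poles apart, held 17.4, 16.1 and 23.4 TPM at 0 h and 7.34, 10.3 and 3.54 at 3 h, with a log2 fold change of -1.29 (SE 0.36, adjusted p = 0.132). Kif23, the motor of the centralspindlin complex, held 23.4, 25 and 27.9 TPM at 0 h, 13.1, 13.1 and 16.8 at 3 h and 11.4, 12.8 and 5.96 at 24 h. It was 1 of 11 members whose mean TPM was lower at 24 h than at 3 h. The other 6 motors, Kif20b, Kif2c, Kif4, Kif15, Kif18b and Kif22, had log2 fold changes from -1.56 to -0.89 at 3 h.

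Among the spindle assembly proteins, Nusap1 (ENSMUSG00000027306, chr2:119618298-119651244, plus strand), which bundles microtubules near chromosomes, stood at 22.2, 19.9 and 19.7 TPM at 0 h, 4.8, 6.22 and 6.55 at 3 h and 13.9, 12 and 3.45 at 24 h. All mice of both times were below 0 h, and the log2 fold change at 3 h was -1.71 (SE 0.32, adjusted p = 0.0113). Nusap1 also had the highest correlation with the mean of the other members. Prc1, which cross-links the central spindle, had a log2 fold change of -1.38 (SE 0.32, adjusted p = 0.0552) at 3 h. The remaining 3, Dlgap5, Tpx2 and Hmmr, ran from -0.84 to -0.43.

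At the centromere and kinetochore, Cenpe (ENSMUSG00000045328, chr3:135212537-135273611, plus strand), a kinesin that carries chromosomes to the spindle equator, and Cenpf (ENSMUSG00000026605, chr1:189640606-189688086, minus strand), a large protein of the outer kinetochore, fell. Cenpf held 10.6, 12.3 and 16.4 TPM at 0 h, 3.66, 3.14 and 5.86 at 3 h and 6.93, 6.23 and 6.08 at 24 h. The 3 h mice of Cenpf were the lowest group of the series, and its log2 fold change was -1.51 (SE 0.31, adjusted p = 0.0248). Cenpe held 9.1, 12.3 and 17.8 TPM at 0 h, 1.92, 4.29 and 4.42 at 3 h and 5.42, 3.79 and 2.6 at 24 h, with log2 fold changes of -1.75 (SE 0.39, adjusted p = 0.0444) and -1.67 (SE 0.38, adjusted p = 0.032). The 4 subunits of the NDC80 complex, which grips microtubules, ran from -2.5 in Spc25 and -1.63 in Ndc80 to -1.21 in Spc24 and -0.72 in Nuf2 at 3 h. None of these 4 passed the test at 3 h. Spc24 shares 11.2% of its 31-base stretches with other quantified genes, and its value is less certain for that reason. Cenpa, the histone variant that marks centromeres, had -0.79.

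The condensin subunit Ncapg (ENSMUSG00000015880, chr5:45669919-45700546, plus strand), part of the complex that compacts chromosomes, had the lowest p of all members at 3 h. It stood at 10.1, 10.4 and 11.3 TPM at 0 h, 2.82, 2.91 and 2.34 at 3 h, 9.22, 10 and 7.42 at 6 h and 12.6, 5.88 and 4.73 at 24 h. The 3 h mice were tightly grouped below all others, while the 24 h mice overlapped 0 h. Its log2 fold change was -1.85 (SE 0.30, adjusted p = 0.00698) at 3 h and -0.41 (SE 0.28, adjusted p = 0.694) at 24 h. Ncapd2, which belongs to the same complex, held 26.2, 20.7 and 32.3 TPM at 0 h and 9.68, 13.9 and 12.2 at 3 h, with a log2 fold change of -1.02 (SE 0.31, adjusted p = 0.175). Ncaph, the kleisin of the complex, had a log2 fold change of -0.2 (SE 0.35, adjusted p = 0.877).

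Genes of mitotic exit and sister separation had the smallest differences at 3 h, with a median log2 fold change of -0.30 over 5 genes. Cdc20, the activator of the anaphase-promoting complex, stood at 20.5, 19.8 and 28.1 TPM at 0 h and 10.6, 17.4 and 18.4 at 3 h, and its log2 fold change was -0.43 (SE 0.31, adjusted p = 0.631). Cdca3, a substrate adaptor for destruction of mitotic inhibitors, held 37.2, 30.1 and 35.2 TPM at 0 h, 20.4, 22.6 and 25.5 at 3 h, 26.3, 23.3 and 10.2 at 24 h and 46.3, 47.8 and 45.2 at 14 d. The 3 h and 24 h mice of Cdca3 were below and the 14 d mice above all 0 h mice. Pttg1 and the separase Espl1, which cuts the ring that holds sister chromatids together, were the 2 members with fold changes above 0, at 0.11 and 0.13. Ube2c, the ubiquitin enzyme that works with the anaphase-promoting complex, had -0.3. In Ube2c, 6.94% of the 31-base stretches are shared with other genes, and its exons overlap those of Tnnc2 on the other strand.

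In the chromosomal passenger complex, Birc5, which is survivin and the member of highest level, stood at 176, 214 and 135 TPM at 0 h, 47.2, 55.6 and 65.7 at 3 h and 90, 56.3 and 100.4 at 24 h. No 3 h or 24 h mouse reached the 0 h mice, with log2 fold changes of -1.41 (SE 0.53, adjusted p = 0.308) and -0.9 (SE 0.51, adjusted p = 0.628). Its 7 d mice ran from 60.6 to 435 with a median of 365 TPM, the widest spread of any time. Cdca8, the borealin subunit, had -1.1 at 3 h (adjusted p = 0.369). For cytokinesis, Racgap1 (ENSMUSG00000023015, chr15:99620496-99651656, minus strand) held 21.8, 22.3 and 26.6 TPM at 0 h, 9.55, 9.4 and 7.75 at 3 h and 18.2, 23.7 and 8.71 at 24 h, and its 3 h log2 fold change was -1.27 (SE 0.27, adjusted p = 0.0363). Ect2, the exchange factor that starts the furrow, had -1.68 (adjusted p = 0.114). Anln held 20.2, 18.2 and 33 TPM at 0 h, 12.5, 16.8 and 13.3 at 3 h and 23.8, 17.9 and 4.22 at 24 h, a log2 fold change of -0.61 (SE 0.41, adjusted p = 0.614) at 3 h.

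**Figure D3:**
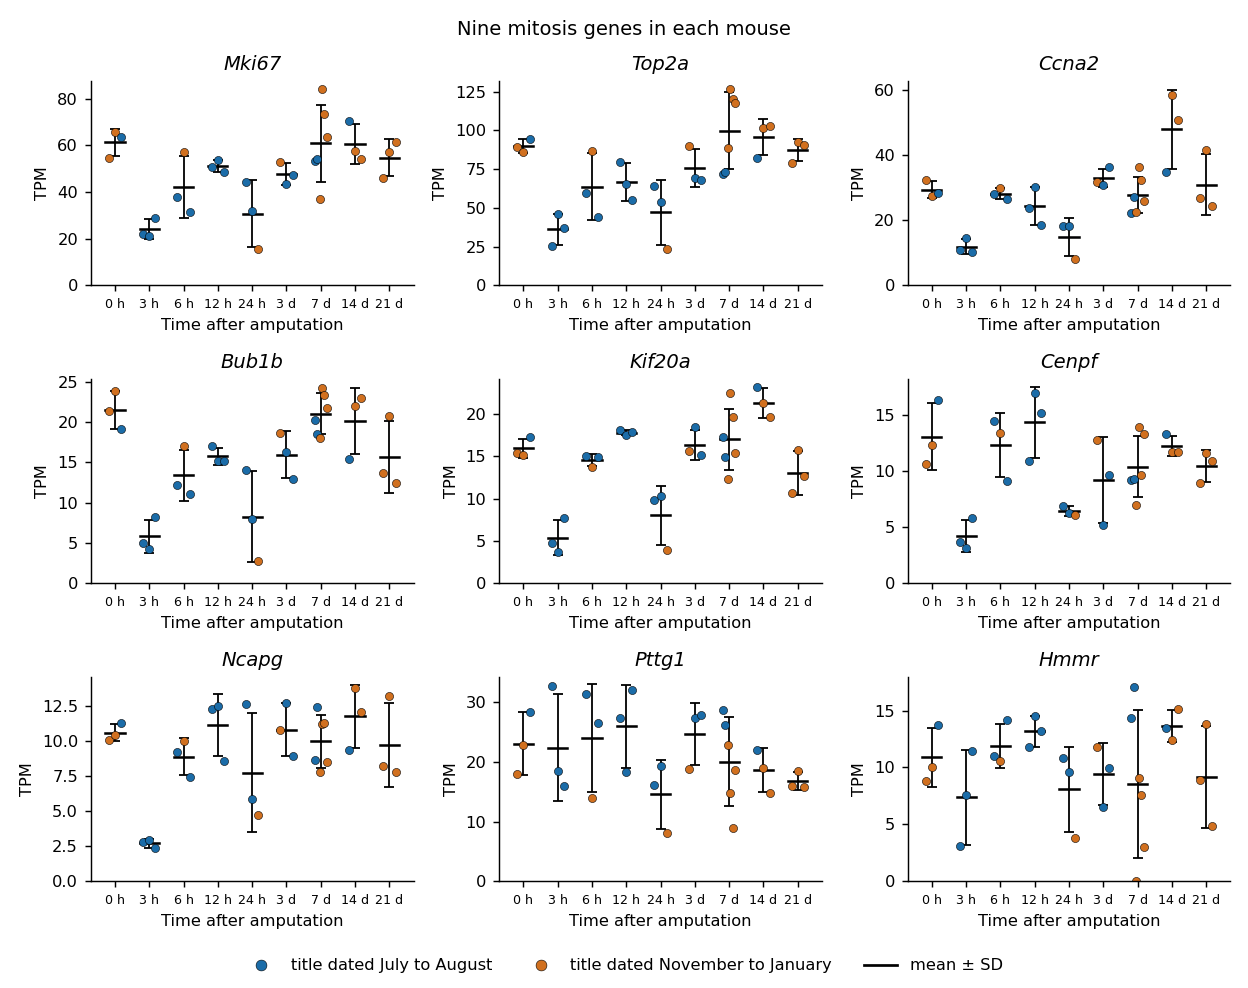
TPM (vertical axes, from 0) in each mouse at the 9 times for 9 mitosis genes, with points coloured by the period of the title date and bars for the mean and SD. In Ccna2, Bub1b, Kif20a, Cenpf and Ncapg the 3 h mice form the lowest or next to lowest group, while the 3 h mice of Pttg1 and Hmmr overlap those of 0 h.

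At 6 h the median member stood at 84.9% of its 0 h mean. The summed level was 77.4% of 0 h without 6 h mouse 2, the only mouse of its time with a later date. Against 0 h, 0 of 49 members passed the test, where 0.189% of all genes did. Of the members 4 had an unadjusted p under 0.05, and DESeq2's test also called 0. Set against 3 h, a comparison chosen after the levels were seen, 4 rose, where 0.0798% of all genes rose. These were Aurka (log2 fold change 2.34, SE 0.38, adjusted p = 0.00621), Ncapg (1.59, adjusted p = 0.0219), Nusap1 (1.59, adjusted p = 0.0306) and Kif20a (1.3, adjusted p = 0.0351). Of the members, 46 of 49 had a fold change above 0 and 28 an unadjusted p under 0.05, while 49.9% of all genes were below 0. In 35 of 49 every 6 h mouse lay above every 3 h mouse, as in 14.1% of all genes tested. The count of 4 was 0 without 3 h mouse 2 or in a fit of these times alone, 1 without 6 h mouse 2 or among mice of earlier dates, 2 without 3 h mouse 1 or 6 h mouse 3, 7 without 7 d mouse 3, and 8 without 24 h mouse 3 or without the left-foot mice. By DESeq2's test it was 12. At 12 h, 0 members passed against 0 h, 0 had an unadjusted p under 0.05, and DESeq2's test called 0, where 0.167% of all genes passed.

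At 24 h against 0 h, 3 members fell and 0 rose, where 0.087% of all genes fell and 0.406% rose. Their log2 fold changes were -1.3 (SE 0.25, adjusted p = 0.00564) for Kif23, -1.67 (SE 0.38, adjusted p = 0.032) for Cenpe and -1.39 (SE 0.33, adjusted p = 0.0468) for Bub1b. Cenpe and Bub1b were also lower at 3 h. All 49 members had a fold change below 0, as did 49.2% of all genes. At an unadjusted p under 0.05 there were 28 members, or 15 without 24 h mouse 3. The median log2 fold change was -0.80 over the members, or -0.60 without that mouse, and 0.01 over all genes. In 30 of 49 every 24 h mouse was below every 0 h mouse, as in 10.7% of all genes. Both comparisons share the 0 h mice.

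The 24 h call rests on few mice. It was 0 without 24 h mouse 3, and 1 without 24 h mouse 2 or any single 0 h mouse. Among mice of earlier dates alone it was 0 with 13 at an unadjusted p under 0.05, and among mice of later dates alone, with a single 24 h mouse assumed to vary like the others, it was 16. With the date period as a covariate it was 22, in a fit that called 1242 of all 13793 genes, against 68 without it. By DESeq2's test it was 9, with 140 of 17169 genes called. Against 12 h, also chosen after the levels were seen, 0 members passed by edgeR and 1 by DESeq2's test. By edgeR 0% of all genes passed, and 18 members had an unadjusted p under 0.05, or 8 without 24 h mouse 3.

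**Figure D4:**
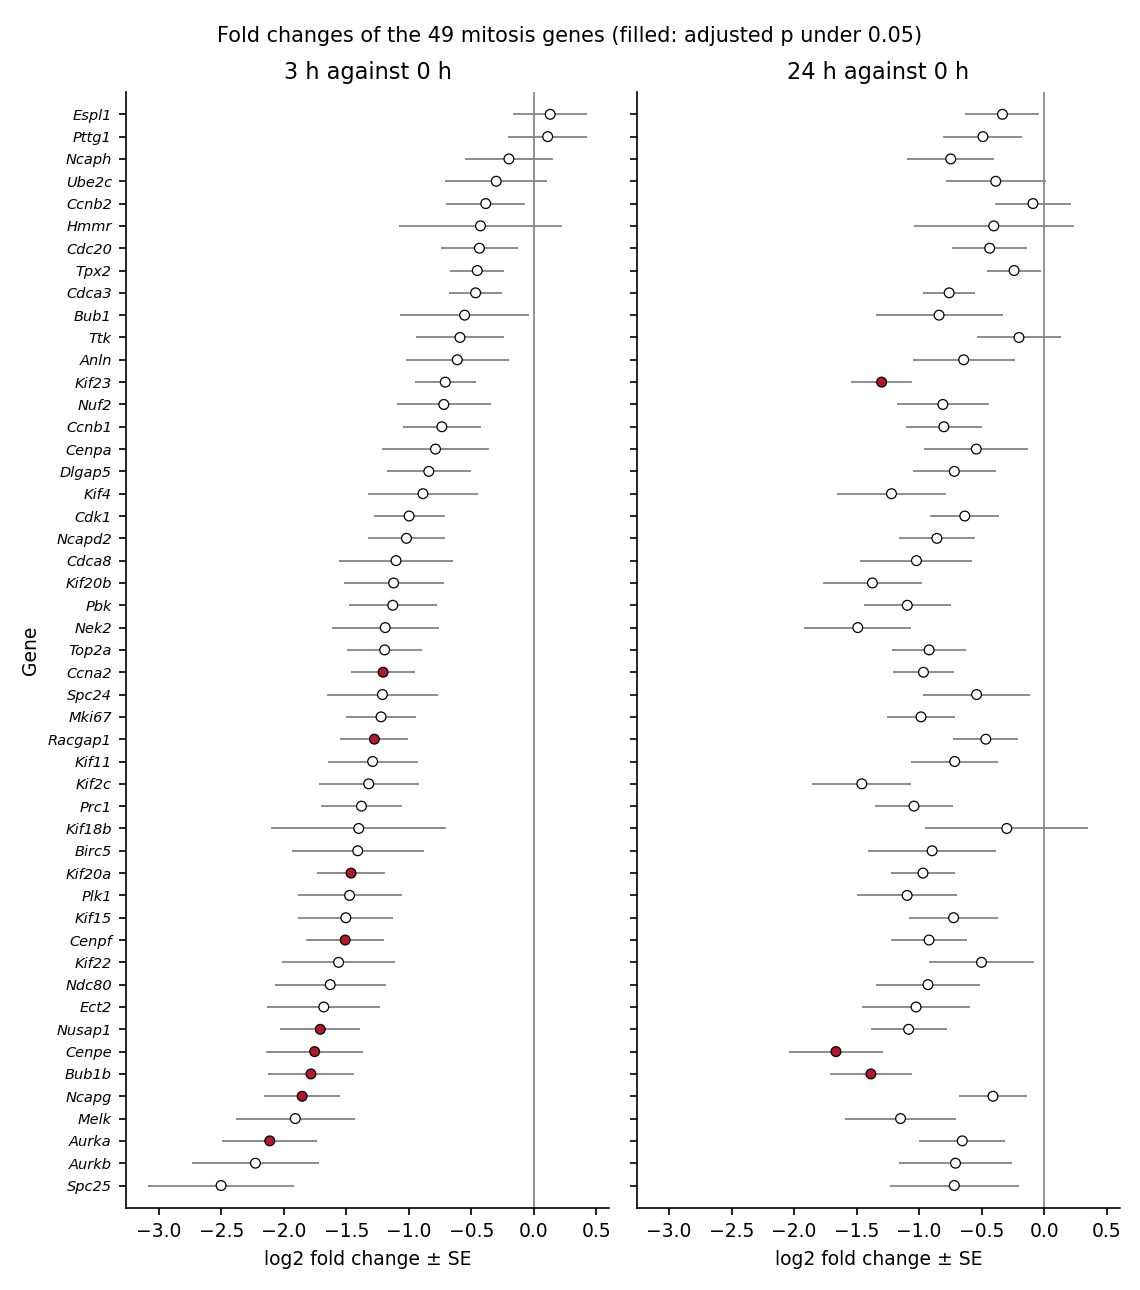
Log2 fold change with its standard error for each of the 49 mitosis genes at 3 h (left) and 24 h (right) against 0 h, sorted by the value at 3 h, where red fill marks an edgeR adjusted p under 0.05. At 3 h 47 of 49 points lie below 0, from -2.5 in Spc25 to 0.13 in Espl1, and at 24 h all 49 do.

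From 24 h to 3 d, chosen after the levels were seen, all 49 members had a fold change above 0. Of all genes, 51.1% were below 0. The median of the members was 0.66, or 0.37 without 24 h mouse 3. By edgeR's test 1 member, Kif23, rose (log2 fold change 1.25, SE 0.25, adjusted p = 0.0394), where 0.0653% of all genes rose. Kif23 went from 11.4, 12.8 and 5.96 TPM at 24 h to 22, 32.2 and 24.4 at 3 d, without overlap. It lost this call in 12 of 30 fits with 1 mouse left out, including those without any single mouse of 24 h, 3 d or 0 h. Against 0 h, 0 members passed at 3 d, 7 d, 14 d or 21 d by edgeR or by DESeq2's test, while 0.551%, 2.34%, 1.61% and 1.94% of all genes passed by edgeR. At an unadjusted p under 0.05 there were 2, 3, 1 and 0 members. The steps from 3 d to 7 d, 7 d to 14 d and 14 d to 21 d had 0 members passing, with 4, 4 and 3 at an unadjusted p under 0.05, against 0.0145%, 0.435% and 0% of all genes. DESeq2's test called 0, 1 and 0 members in these steps.

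The highest levels of many members came at 14 d. There 39 of 49 had a fold change above 0, while 50.5% of all genes were below 0. The median of the members was 0.15, which was -0.02 with the date period as a covariate. In 13 every 14 d mouse lay above every 0 h mouse, as in 14.5% of all genes. Ccna2 was the member of lowest p, with 34.7, 58.5 and 50.6 TPM at 14 d, all above the 0 h mice, and a log2 fold change of 0.66 (SE 0.24, adjusted p = 0.266). The others of these 13 were Ccnb2, Aurka, Aurkb, Kif20a, Tpx2, Cdca3, Kif22, Cenpa, Ncaph, Ttk, Racgap1 and Ube2c. At 21 d the median member stood at 95.6% of its 0 h mean.

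At 7 d the 6 mice were spread widely, and the members did not move together in 7 d mouse 3. In that mouse Hmmr was listed at 0 TPM, Kif18b at 0.1, Aurkb at 2.09, Anln at 3.22 and Kif11 at 4.87, the lowest of the 7 d mice in each case, while Birc5 was at 391 and Cdca8 at 59.1. Without it the summed 7 d level was 109.9% of 0 h, against 110.2% with it. Hmmr ran from 0 to 17.1 with a median of 8.33 TPM over the 7 d mice, from 8.82 to 13.8 at 0 h and from 3.13 to 11.5 at 3 h. Pttg1 ran from 8.07 to 32.7 TPM and Anln from 3.22 to 33 TPM over all 30 mice.

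Members varied together across mice. The level of a member, as log2(CPM + 1), correlated with the mean of the other members with a median Pearson r of 0.74 over 30 mice, from -0.19 in Pttg1 to 0.92 in Nusap1. After the mean of each time point was taken out, the median was 0.54, from -0.29 in Pttg1 to 0.84 in Mki67. The points share libraries and depth, and these values are descriptions. Outside the list, the 20 genes most alike in this measure were Cbx5 (0.86), Cep55 (0.85), Kifc1 (0.85), Ckap2l (0.83), Tacc3 (0.83), Neil3 (0.81), Haus4 (0.79), Spag5 (0.79), Cnot8 (0.79), Ankle1 (0.78), Stmn1 (0.77), Smc2 (0.77), Cdc25c (0.77), Ibtk (0.76), Mns1 (0.76), Iqgap3 (0.76), Esco2 (0.75), Myef2 (0.75), Depdc1a (0.75) and Baz1b (0.75). Of these, 9 belong to the wider lists of mitosis genes.

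Lists of the wider machinery of mitosis were examined in the same fit. Of 30 other kinetochore and checkpoint genes 2 fell at 3 h, Cenph (log2 fold change -3.08, adjusted p = 0.0127) and Ska2 (-1.73, adjusted p = 0.0444), both kinetochore subunits, and 11 had an unadjusted p under 0.05. By edgeR 0 of 19 spindle, centrosome and cytokinesis genes, 0 of 15 cohesin and condensin genes, 0 of 15 genes of the anaphase-promoting complex and 0 of 15 regulators of entry and exit passed at 3 h, with 8, 3, 2 and 2 at an unadjusted p under 0.05. Their median log2 fold changes were -0.77, -0.39, -0.41, -0.08 and -0.61 in the order given. Over the time course 9.01% of all genes passed. Cenph, Bub3, Incenp and Ska2 did so in the first list of 30, and Tacc3, Stmn1 and Ndel1 in the spindle list of 19. Rad21, Smc2 and Ncapg2 did so in the cohesin and condensin list of 15. The summed level of the anaphase-promoting complex was 85.4% of 0 h at 3 h and 94.7% at 24 h.

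Among 19 genes known to control transcription of mitosis genes, E2f1 changed over the time course by edgeR's test (adjusted p = 0.00122), as did 9.01% of all genes. At 3 h 0 of the 19 passed, and 6 had an unadjusted p under 0.05. Foxm1, the activator of late cell cycle genes, had a log2 fold change of -1.4 at 3 h (SE 0.42, adjusted p = 0.168). DNA replication genes, which act before mitosis, had a summed level of 60.0% of 0 h at 3 h and 89.1% at 24 h, beside 43.4% and 55.3% for the mitosis genes. The 24 h mice held 741, 581 and 331 TPM of replication genes, with mouse 3 the lowest, and the 0 h mice 586 to 653 TPM. The difference between the lists was not tested. Of 26 replication genes 1, Tk1, was lower at 3 h by edgeR's test, with a log2 fold change of -2.18 (SE 0.43, adjusted p = 0.0163). At 24 h 0 passed, and 1 had an unadjusted p under 0.05. Over the time course 8 of the 26 passed, beside 9.01% of all genes.

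Marker genes of the cell types a digit can hold were summed in the same mice. The sum of 7 basal keratinocyte markers was 10944 to 13076 TPM at 0 h, 10531 to 12574 at 3 h and 8908 to 11171 at 24 h. Of the 7, 0 had every 3 h mouse and 1 had every 24 h mouse below 0 h, as did 15.9% and 10.7% of all genes tested. For 10 nail and hair matrix markers it was 4832 to 8417 TPM at 0 h, 5038 to 12963 at 3 h and 6646 to 11970 at 24 h. Neutrophil markers summed to 15.5 to 26.1 TPM at 0 h, 18.9 to 56.7 at 3 h and 129 to 270.2 at 24 h. The marrow granulocyte progenitor genes Mpo, Elane, Prtn3, Ctsg and Ms4a3 summed to at most 1.7 TPM at 0 h, 0 at 3 h and 3.4 at 24 h. Lymphoid markers summed to at most 4.56, 3.11 and 6.19 TPM at these times. Erythroid markers ran from 92.3 to 738 TPM at 0 h, 42.3 to 181 at 3 h and 39.5 to 83.8 at 24 h. Their sum, like that of the mitosis genes, was below 0 h in every 24 h mouse. Of the 9, 2 were below 0 h in every 24 h mouse, beside 10.7% of all genes tested. Sums of macrophage, endothelial, osteoclast and fibroblast markers overlapped between 0 h and both 3 h and 24 h, except macrophage markers, which lay above 0 h at 24 h. Osteoblast and bone matrix markers held 655 to 1462 TPM at 0 h, 1041 to 1584 at 3 h and 277 to 861 at 24 h. The part of these shifts in the levels of the mitosis genes was not tested.

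Some reads of a member could belong to another gene. Of the 49, 35 share no 31-base stretch with another quantified gene, 12 share up to 5% of theirs and 2 share more, and 8 overlap exons of a gene on the opposite strand, among them Kif20a with Cdc23, Ncapg with Lcorl and Nusap1 with Oip5. Of these partners, Oip5 had a log2 fold change of -1.91 at 3 h (adjusted p = 0.520), Cdc23 -0.53 (adjusted p = 0.407) and Lcorl 0.69 (adjusted p = 0.606). No partner that was tested passed at 3 h or 24 h.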

How the data were processed

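Poly(A) RNA of each digit was sequenced single-end, and the authors aligned reads to Ensembl mouse transcripts with Bowtie and estimated abundance with RSEM 1.2.3. The deposited tables hold an expected count and a TPM value per gene and mouse, and all tests used the expected counts, rounded to whole numbers (78.1% were whole as deposited, 67.1% for the mitosis genes). A deposited table of averaged, normalized TPM was not used. RSEM divides reads shared between genes by a model, so values of genes with similar or overlapping copies are less certain. Totals ran from 3167625 to 16277816 per mouse (median 6103688), and no replicate pair agreed within counting noise (chi-square per degree of freedom 9.83 to 94.7 over 39 pairs).

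Groups came from the time point stated for each sample, and dates and feet from the sample titles. Counts were fitted with edgeR 4.0.16 in R 4.3.3 over all 30 mice with 1 coefficient per time, TMM normalization and edgeR's own filter, which kept 13793 of 20321 genes. The quasi-likelihood test was adjusted by Benjamini-Hochberg over all genes tested, at a threshold of 0.05. Its p-values set differences between times against the spread between mice, estimated over all times together. Without the date covariate that spread also holds differences between the date periods. Counts of members at an unadjusted p under 0.05 are descriptions, because the share of all genes at that level was not counted. Correlations used log2(CPM + 1). Values in every mouse were given for 20 members, 14 set by role and the others by the lowest adjusted p over the time course, and the 3 members of highest p were named with their ranges. Cenpe and Kif23 were given in the same way because few members were called at 24 h, chosen after their values were seen. The members and lists were chosen with earlier results of these data known. Alternatives were DESeq2 1.42.0, its size factors, other filters, a threshold of 0.01, the date period as a covariate, subsets of mice and each mouse left out. The statistics were tested on simulated counts. Figures were drawn with matplotlib 3.10.9.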

Additional observations from a re-analysis of the deposited data

Results flagged for a closer look

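Among the 6 mice at 7 d, Kif15 and Nuf2 each had 1 mouse far from the others. For Kif15, a spindle motor, 7 d mouse 5 held 18.25 TPM, the nearest other mouse 11.72 and the lowest 9.3, so that the gap was 0.7296 of the whole range. For Nuf2, a subunit of the NDC80 complex, 7 d mouse 4 held 30.26 TPM, the nearest 22.2 and the lowest 18.46, a gap of 0.6831 of the range. Both exceed the critical value of Dixon for 6 samples. Chance passes about 1 in 20 groups, and 2 of 50 measures passed where 2.5 would by chance.

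The course over time differed between the earlier and later title dates in 3 mitosis genes, by edgeR's test of the interaction over the 6 times with mice of both periods (21 mice, 13587 genes, 0.883% called). They were Top2a (adjusted p = 0.0257463), Birc5 (adjusted p = 0.0316042) and Ncapd2 (adjusted p = 0.0376468), and 20 members had an unadjusted p under 0.05. Birc5 had a mean of 83.2 TPM in the 2 earlier and 389 TPM in the 4 later 7 d mice, beside 135 and 195 TPM at 0 h. Top2a had 58.8 TPM in the earlier and 23.6 TPM in the single later mouse at 24 h, and 72.5 and 113 TPM at 7 d. Ncapd2 had 19.3 and 5.15 TPM at 24 h and 32.3 and 23.4 TPM at 0 h. Several time points hold 1 mouse of a period, so a difference by date and one by mouse cannot be told apart there.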

How the results depend on the processing

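The members called at 3 h and at 24 h were lower in every fit that called any. The median log2 fold change of the members changed sign at 14 d (0.15 to -0.02) and 21 d (0.02 to -0.19) with the date period as a covariate, and at 3 d (-0.19 to 0.01), 6 h (-0.20 to 0.11) and 7 d (-0.01 to 0.14) among later dates. At 7 d, where it was near 0, it also crossed 0 in many other fits, and at 21 d it was -0.07 without 21 d mouse 2. With 1 mouse left out, the number of mitosis genes called ran from 16 to 28 over the time course, 0 to 15 at 3 h, 0 to 4 at 24 h, 0 to 8 from 3 h to 6 h and 0 to 1 from 24 h to 3 d. In the 10 other comparisons it ran from 0 to 0. At a threshold of 0.01 the counts were 11 over the time course, 2 at 3 h, 1 at 24 h, 1 from 3 h to 6 h and 0 from 24 h to 3 d. With the date period as a covariate they were 29 at 3 h, 22 at 24 h, and 1 each at 6 h, 14 d, 21 d and from 7 d to 14 d, in fits that called 828, 1242, 856, 1996, 1617 and 274 of 13793 genes. Among earlier dates alone, chosen after seeing the data, they were 12 over the time course, 1 at 3 h, 0 at 24 h, 1 from 3 h to 6 h and 0 from 24 h to 3 d. Among later dates alone, likewise, they were 16 at 24 h, 2 at 7 d, 1 from 7 d to 14 d, which was lower where the other fits had 1 higher, and 9 from 24 h to 3 d, which compares single mice. Without the left-foot mice 8 rose from 3 h to 6 h. In fits of the 2 times alone, which hold fewer samples, 0 were called at 3 h, from 3 h to 6 h and from 24 h to 3 d. DESeq2's test called 34 over the time course, 21 at 3 h, 9 at 24 h, 1 from 7 d to 14 d, 12 from 3 h to 6 h, 1 from 12 h to 24 h and 2 from 24 h to 3 d. Summed CPM gave 81.8% of 0 h at 12 h and 108.8% at 14 d. The cause of these shifts was not tested. No paired analysis was possible because the replicate numbers were given in accession order and pair no samples. With 3 mice at most times, members of low count such as Kif18b (1286 counts in all mice) have wide errors.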
